A study of Mus musculus with 2 samples.

Results

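The immunoglobulin variable (V) segments are the 218 genes that the GENCODE M21 annotation of the mouse genome types as IG_V_gene, out of 53843 annotated genes on the 19 autosomes and chromosome X. They lie in 3 arrays on GRCm38. The heavy array held 113 segments, the kappa array 102 and the lambda array 3. The series measured genome folding by in situ Hi-C, which cuts fixed chromatin with DpnII, ligates neighbouring ends and counts which loci touch. Immediate neuronal precursors, taken as primary cells, were sorted by flow cytometry from olfactory epithelium. The mice were pups of the FVB/NTac strain, and both sexes were mixed. The 2 biological replicates held 2200000 and 2100000 cells, and fixation was with 1% formaldehyde. The labels list no treatment and no modification. The sort used an Ngn1-GFP reporter, so the population is what its P4 gate collected, and the number of animals behind each replicate is not stated in the labels.

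Domain boundaries were called by the authors on 1 matrix combined from both replicates, and the deposited list of 7841 boundaries is the only measurement used here. No value below therefore has a replicate error, the depth behind the calls is unknown, and intervals given for shares are Wilson 95% intervals that cover counting error only. Each boundary is a 5 kb interval with a class and a score. The score is the authors' own value, and larger scores are the stronger class: strong boundaries start at 0.5 and weak ones at 0.2. The list as a whole had a median score of 0.533, with quartiles at 0.309 and 0.899 and a highest score of 3.78, and 52.8% of its boundaries were strong. A domain is here the stretch between successive boundaries, and the median domain was 260 kb long with 5 genes. Expression was not analysed here, so neither the identity of the sorted cells nor the silence of the immunoglobulin genes in them was checked against RNA. The reference genome comes from another mouse strain, and differences in V segment content between strains were not examined.

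A V segment encodes most of the antigen-binding domain of an antibody chain. In developing B lymphocytes the recombinase formed by Rag1 and Rag2 joins one V segment to a J segment, with a D segment between them in the heavy chain, next to the constant (C) genes. It cuts at recombination signals, each made of a heptamer, a spacer and a nonamer, and joins a short-spacer signal to a long-spacer one. As B cells develop, the large arrays contract so that distant segments reach the joining site. The architectural protein CTCF with the cohesin complex takes part in that folding. Rearrangement is known from lymphocytes, and the order of the arrays in the sorted cells was not examined, so positions are those of the reference.

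The members were checked for the sequence features that V segments are known for. A heptamer that opens with CAC, the letters needed for cutting, directly followed 207 of the 218 gene models, and these are counted as having a signal. The spacer is the length, of 11 to 13 or 22 to 24 bases, after which the best match to the nonamer stands. The consensus heptamer CACAGTG was intact after 167 of them, and the consensus nonamer ACAAAAACC after 35. Of the 105 heavy segments with a signal, 102 had a long spacer of 22 to 24 bases, and of the 99 such kappa segments 98 had a short spacer of 11 to 13. All 3 lambda segments had a spacer of 23 bases. The signals of 5 segments are shown because these segments lie in or beside the boundaries described below, or, for Iglv1, because it represents the array without any. Heptamer and nonamer are in capitals and sequences are read 5′ to 3′ on the strand of the gene, from the RefSeq copy of GRCm38. They lie at chr12:113879057-113879095 for Ighv2-9, chr12:115833912-115833949 for Ighv1-75, chr6:67861660-67861687 for Igkv17-127, chr6:70518850-70518877 for Igkv3-12 and chr16:19084978-19085016 for Iglv1. Ighv2-9, Ighv1-75 and Iglv1 are read from the minus strand and the kappa pair from the plus strand.
Ighv2-9: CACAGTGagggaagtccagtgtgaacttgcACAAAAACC
Ighv1-75: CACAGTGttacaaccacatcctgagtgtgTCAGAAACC
Igkv17-127: CACAGTGctatgtcctcttACAGAAACC
Igkv3-12: CACAGTGctccagggctgaACAAAAACC
Iglv1: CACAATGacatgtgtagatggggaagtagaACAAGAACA
The heavy and lambda signals shown carry the long spacer and the kappa signals the short one.

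Immunoglobulin promoters are known for an octamer bound by the POU factors Oct1 and Oct2. The letters ATGCAAAT, or ATTTGCAT for the other strand, were found in the 300-base window around the start of 168 of the 218 segments, or 77.1% (71.0 to 82.1). The same letters were in 1.74% of the 32851 RefSeq gene promoters of the same length. In the heavy array 91 of 113 windows held the octamer, in all of them in the forward orientation. In the kappa array 74 of 102 did, 72 of them reversed, and the 3 lambda windows held it reversed. A window with the octamer in both orientations was counted as forward, so reversed copies in forward windows are not counted. No exact octamer stood in the windows of the 9 Ighv2, 9 Igkv6 and 10 Igkv8 segments, which says only that these letters are not there. The 120 bases before the start of the 3 segments that begin inside a boundary are given with the octamer in capitals. They are the minus strand of chr12:115834419-115834538 for Ighv1-75, and the plus strand of chr6:67861033-67861152 for Igkv17-127 and of chr6:70518130-70518249 for Igkv3-12.
Ighv1-75: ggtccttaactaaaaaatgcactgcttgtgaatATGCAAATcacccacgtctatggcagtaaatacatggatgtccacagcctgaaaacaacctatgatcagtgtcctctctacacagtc
Igkv17-127: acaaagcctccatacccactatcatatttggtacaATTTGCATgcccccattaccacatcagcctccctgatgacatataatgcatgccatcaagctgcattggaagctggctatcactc
Igkv3-12: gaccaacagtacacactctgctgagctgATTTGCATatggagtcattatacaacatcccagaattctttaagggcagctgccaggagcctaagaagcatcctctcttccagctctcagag
The forward octamer of the heavy segment and the reversed octamers of the kappa segments show the orientation that most members of each array share.

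Most boundaries inside the heavy array were strong, and most boundaries inside the kappa array were weak. The heavy array, chr12:113578504-116000461 on GRCm38 and 2.42 Mb long, held 7 boundaries, 6 of them strong (85.7%, 48.7 to 97.4), with a median score of 0.753. The kappa array, chr6:67555497-70704177 and 3.15 Mb long, held 11, 2 of them strong (18.2%, 5.14 to 47.7), with a median score of 0.307. Scores ranged from 0.464 to 2.996 in the heavy array and from 0.205 to 1.41 in the kappa array, so the ranges of the arrays overlap. Above the median of the whole list lay 6 of the 7 heavy boundaries and 2 of the 11 kappa boundaries, and 6 kappa boundaries were below its lower quartile. The lambda array, chr16:19085017-19260859 and 0.176 Mb long, held 0 boundaries. Together 8 of the 18 boundaries inside the arrays were strong, 44.4% (24.6 to 66.3), beside 52.8% of the whole list. The difference between heavy and kappa was noticed in these data and was not tested.

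**Figure D1:**
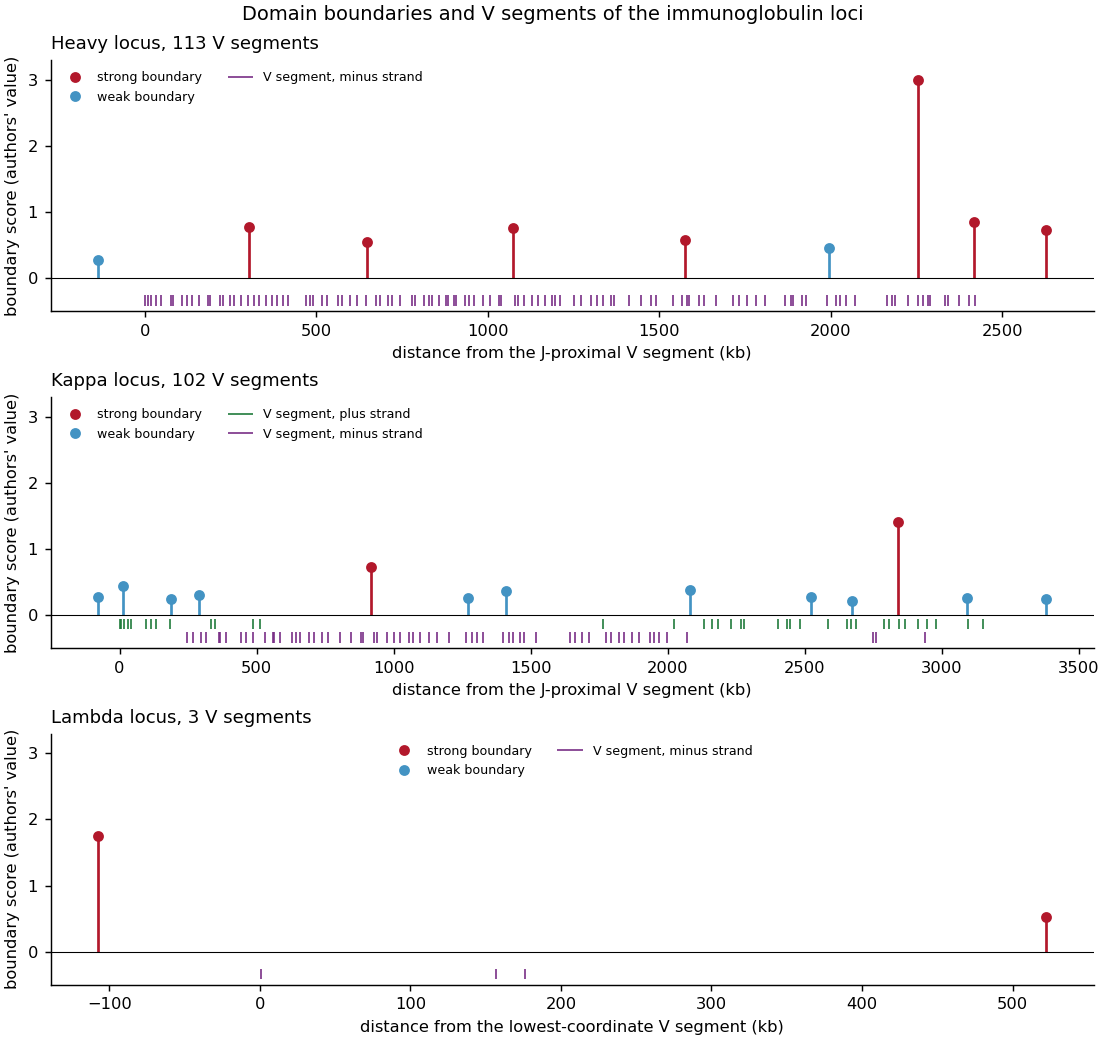
Boundaries (height, authors' score; red, strong; blue, weak) and V segment starts (ticks below 0, by strand) along the heavy, kappa and lambda loci, in kb from the J-proximal V segment, or from the segment of lowest coordinate for lambda. The boundary of score 2.996 stands far above the others of the heavy array, and the lambda segments lie between enclosing boundaries with none among them.

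The number of boundaries in each array was near that of other stretches of the same length. Windows of the length of the heavy array held a median of 7 boundaries (quartiles 6 and 9, 1023 windows). Windows of the length of the kappa array held a median of 10 (quartiles 8 and 11, 799 windows), and those of the lambda length a median of 1 (14435 windows). Per megabase, the heavy array had 2.89 boundaries and the kappa array 3.49, beside 3.06 over the assembled genome. Both counts lay within the quartiles of the windows.

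The heavy V segments all read from the minus strand and run away from the D and J segments in the order in which their boundaries are described here. The D-proximal boundary of the array, chr12:113880001-113885000, was strong with a score of 0.770, and the start of Ighv2-9 lay 0.460 kb from it, with Ighv7-1 11.9 kb away on the far side. The next, chr12:114225001-114230000, had a score of 0.552 between Ighv7-4 at 1.67 kb and Ighv3-4 at 24.1 kb. The boundary chr12:114650001-114655000 scored 0.753 between Ighv1-12 at 33.7 kb and Ighv1-15 at 2.79 kb. All 3 are strong, and 6 Ighv1 segments already lie before the third of them, among other families.

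Inside that Ighv1 block, chr12:115150001-115155000 scored 0.585 and lay between Ighv1-52 at 4.08 kb and Ighv1-53 at 3.84 kb. The only weak boundary of the array, chr12:115570001-115575000, scored 0.464 between Ighv8-11 at 2.41 kb and Ighv1-66 at 18.6 kb. The boundary chr12:115830001-115835000 scored 2.996, the rank 5 score of all 7841, and Ighv1-75 begins within it. Its neighbours Ighv1-74 and Ighv1-76 start 26.9 and 13.3 kb away. The distal boundary chr12:115995001-116000000 scored 0.844 between Ighv1-84 at 13.9 kb and the last segment, Ighv1-85, at 0.461 kb. All 7 heavy boundaries had at least 1 V segment start within 10 kb, in an array with 46.7 segments per Mb. At that density a window around any point often holds a start, so the count describes the array as well as its boundaries. The boundary at Ighv1-75 was among the highest scores of the genome.

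Repeated sequence was measured because V segments arose by duplication and reads from near-identical copies cannot be placed. Of sampled 50-base words, 74.2% occurred once in the reference in the heavy array, 71.8% in the kappa array and 75.7% in the lambda array, beside 88.4% over the genome. The interval of score 2.996 had 72.0% unique words, and the sequence within 100 kb of it 61.1%. The interval between Ighv1-52 and Ighv1-53 had 48.1%. The lowest interval was in the kappa array, at 19.9%, and the median over the 18 intervals was 72.5%. Under 50% unique words were found in 3 of these 18 intervals and in 1.79% of all boundary intervals of the list. The part of repeated sequence in the scores was not tested.

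The boundaries that enclose the heavy array lay outside it by more than 100 kb on both sides. On the D side the nearest was chr12:113440001-113445000, weak with a score of 0.274 and 134 kb from Ighv5-2. It lies within the D cluster, 9.46 kb from Ighd4-1 and 3.23 kb from Ighd3-2, and only 21.3% of its sampled words were unique. The next boundary beyond it, chr12:113215001-113220000, was strong with a score of 1.73 (rank 256). It lay 34.8 kb from Igha, the IgA constant gene that ends the locus, and 29.1 kb from the start of Tmem121. On the distal side the nearest boundary, chr12:116205001-116210000, was strong with a score of 0.734 and 205 kb from Ighv1-85, inside Wdr60, a gene of the cilium transport machinery.

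That weak boundary split the D cluster and parted most D segments from the J segments. The heavy constant genes, among them Ighm and Ighd for IgM and IgD, the 4 J segments and Ighd4-1 were in the domain below it. The other D segments shared a domain with the D-proximal V segments, and the 50.4 kb between the last D segment and Ighv5-2 overlapped 0 boundaries. The 2 protein-coding genes of the heavy locus, Adam6b and Adam6a, which are sperm fertility genes lodged among the D and V segments, were in that same domain.

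The kappa segments are on both strands, 38 on the plus and 64 on the minus, and their boundaries are given from the J-distal end. The boundary chr6:67610001-67615000 scored 0.254, with the start of Igkv1-135 0.288 kb away and with 19.9% unique words. The strongest of the array, chr6:67860001-67865000, scored 1.41 (rank 545), and Igkv17-127 begins within it. The boundary chr6:68030001-68035000 had the lowest score, 0.205, with Igkv17-121 at 1.81 kb. The boundary chr6:68180001-68185000 scored 0.266. Alone among the 11, it had no V segment start within 10 kb, Igkv1-117 and Igkv2-112 being 59.0 and 35.0 kb away. With 32.4 segments per Mb, windows around other points of the kappa array also often hold a start. This distal stretch therefore held 1 strong boundary among weak ones at the lower end of the list.

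In the middle of the kappa array, chr6:68620001-68625000 scored 0.381 at a change of strand, between Igkv12-98 on the plus strand at 49.2 kb and Igkv10-96 on the minus strand at 7.44 kb. Within the Igkv4 block, chr6:69290001-69295000 scored 0.358 between Igkv4-69 at 5.68 kb and Igkv4-68 at 10.4 kb. The boundary chr6:69430001-69435000 scored 0.253 between Igkv4-61 at 12.5 kb and Igkv4-59 at 3.76 kb. The other strong kappa boundary, chr6:69785001-69790000, scored 0.730 between Igkv5-45 at 8.66 kb and Igkv12-44 at 25.2 kb, with 43.5% unique words. The large Igkv4 family, all 26 of its members on the minus strand, was thus cut by weak boundaries only.

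At the J-proximal end, chr6:70410001-70415000 scored 0.307 between Igkv6-15 at 3.01 kb and Igkv6-14 at 20.5 kb. Igkv3-12 begins inside chr6:70515001-70520000, which scored 0.238, at the change from the minus-strand Igkv6-13, 57.0 kb away, to the plus-strand Igkv3 family. The boundary chr6:70690001-70695000 scored 0.445 between Igkv3-3 at 3.06 kb and Igkv3-2 at 3.45 kb, and Igkv3-1 at 8.58 kb was also near it. Both boundaries that enclose the array were weak: chr6:67320001-67325000 scored 0.245 inside Il12rb2, an interleukin receptor gene, 230.5 kb from Igkv2-137. On the J side chr6:70780001-70785000 scored 0.273 inside Rpia, a pentose phosphate enzyme gene, 75.8 kb from Igkv3-1 and 53.0 kb from Igkc, the kappa constant gene. The 18.4 kb between Igkv3-1 and the J segments overlapped 0 boundaries, and Igkv3-2, Igkv3-1, the 5 annotated J segments and Igkc shared a domain of 85 kb.

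**Figure D2:**
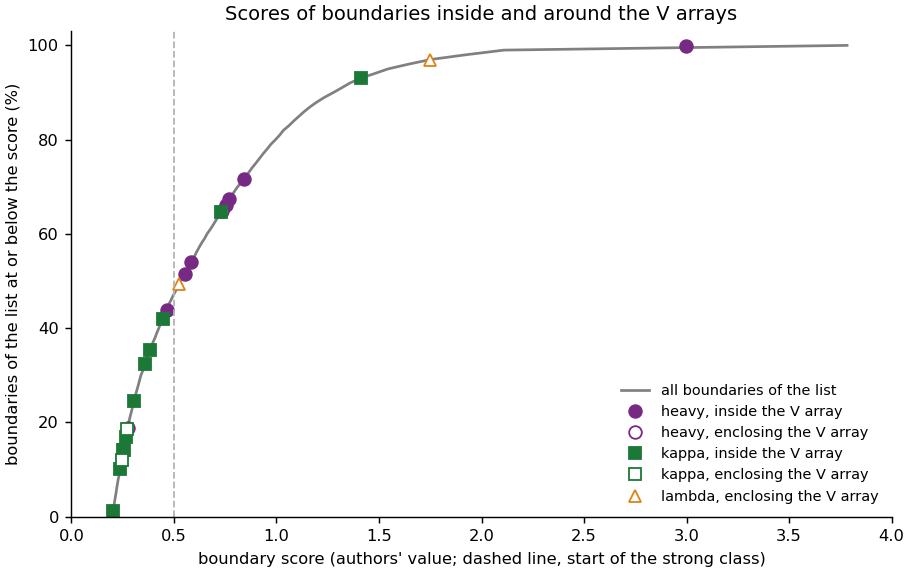
Share of all boundaries of the list at or below each score (grey line, by whole percentiles) with the boundaries inside (filled) and enclosing (open) the V arrays placed on it. Most kappa boundaries sit at the low end, most heavy boundaries lie above the dashed line at 0.5, and the heavy boundary of 2.996 sits near the top.

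The lambda array lay whole in 1 domain of 625 kb, chr16:18980001-19605000, longer than 92.7% of all domains. That domain held Iglv1, Iglv3 and Iglv2 with the J and C genes of the locus, 12 immunoglobulin genes in all among 28. Its 6 protein-coding genes were olfactory receptors, Olfr164 to Olfr169, members of the odorant receptor family whose choice takes place in the neurons that these precursors form. Both enclosing boundaries were strong. The one at chr16:18975001-18980000 scored 1.75 (rank 238), 105 kb from Iglv1, and the nearest protein-coding start was that of the histone chaperone gene Hira at 98.0 kb. The one at chr16:19605001-19610000 scored 0.527 inside Olfr170, 344 kb from Iglv2. The mouse lambda array is short, and windows of its length often held no boundary: 48.1% of them had 0.

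Domains held between 1 and 27 V segments, and several heavy families lay in 1 domain each. Ordered from the D side, the 8 heavy domains held 19, 17, 22, 22, 16, 8, 7 and 1 segments, and Ighv1-75 lay inside a boundary. The first, 435 kb long, held all 10 Ighv5 and all 9 Ighv2 segments and no others. The second, 340 kb, held 7 families, among them all 4 Ighv14 and all 4 Ighv7 segments. The third, 420 kb, held 9 families with 6 Ighv1 segments, and the domains beyond it held Ighv1 and Ighv8 only. Of the 11 heavy families with more than 1 member, 7 lay within 1 domain, while the 53 Ighv1 segments spread over 6 domains and the 9 Ighv8 segments over 4.

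The 12 kappa domains, ordered from the J side, held 2, 6, 2, 27, 12, 4, 22, 10, 3, 5, 5 and 2 segments, and Igkv3-12 and Igkv17-127 lay inside boundaries. The largest by count, 620 kb long, held all 10 Igkv8 segments with members of 6 other families and 1 segment of no named family. The longest, 665 kb, held 22 segments, 13 of them Igkv4. The 26 Igkv4 segments fell into 3 domains, with 9 and 4 in the others, and the 10 Igkv1 segments into 7. Of the 13 kappa families with more than 1 member, 3 lay within 1 domain, against 7 of 11 in the heavy array. That difference was not tested. A family longer than a domain cannot lie within it, and families such as Igkv1 (2402 kb) and Ighv1 (1513 kb) were longer than any domain of their arrays. The median domain was 377.5 kb in the heavy array and 207.5 kb in the kappa array. Counting every annotated gene and pseudogene, each domain with V segments held at least 8 genes, beside a median of 5 over the list. The domains were picked for holding V segments, and the counts include those segments and their pseudogenes. Higher counts than the median thus follow in part from that choice. The first heavy domain held 65 genes, rank 22 of 7821 domains, among them 19 V segments and 18 V pseudogenes.

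**Figure D3:**
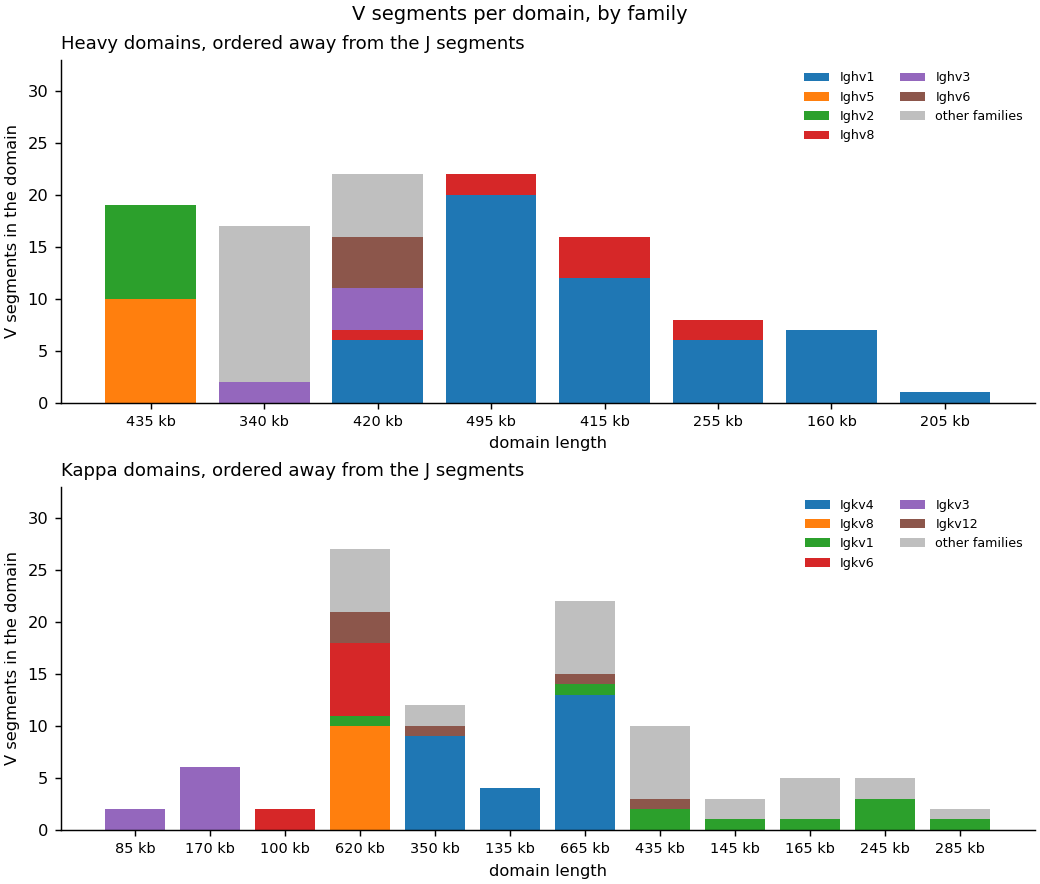
V segments in each domain of the heavy and kappa arrays, coloured by family and ordered away from the J segments, with the domain length on the horizontal axis. The first heavy domain holds the Ighv5 and Ighv2 families alone, and 2 kappa domains, of 620 and 665 kb, hold 27 and 22 segments.

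Neighbouring segments were compared by whether a boundary lay between them. In the heavy array 52 of 105 neighbour pairs without a boundary were of the same family (49.5%), beside 4 of the 7 pairs with one (57.1%). In the kappa array the counts were 38 of 90 (42.2%) and 5 of 11 (45.5%). A change of strand was found in 12 of 90 kappa pairs without a boundary and in 2 of the 11 with one. The median spacing of starts was 18.2 kb without and 26.0 kb with a boundary in the heavy array, and 23.9 and 35.0 kb in the kappa array. A wider gap has more room for a boundary, so the spacing is given as a description.

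The share of V segments near a boundary was below that of all genes, though the share of all genes lay within its counting interval at 10 kb. That interval treats segments as independent, although they lie in 3 arrays. Within 10 kb of a boundary started 20 of the 218 segments, 9.17% (6.02 to 13.7), beside 12.1% of all genes and 16.4% of protein-coding genes. They were 8 heavy segments, 12 kappa segments and 0 of the 3 lambda segments. Of the 20, 9 were nearest to a strong boundary. Within 5 kb there were 16 segments, at 5 to 10 kb 4 and at 10 to 15 kb 9. The median distance was 85.2 kb for the V segments, 66.4 kb for all genes and 55.3 kb for protein-coding genes. Among the 155 V pseudogenes of the same loci, decayed copies typed apart in the annotation, 8 started within 10 kb (5.16%, 2.64 to 9.85).

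**Figure D4:**
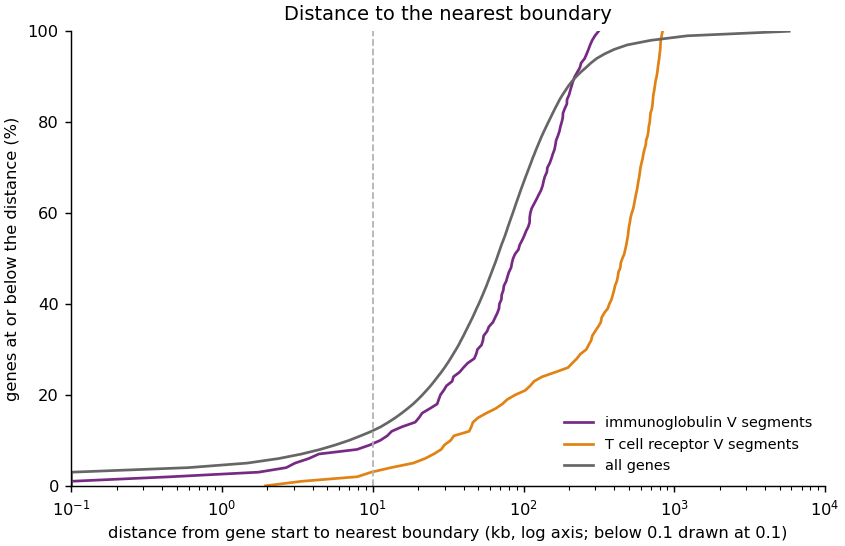
Share of genes at or below each distance from their start to the nearest boundary, in kb on a log axis, for immunoglobulin V segments, T cell receptor V segments and all genes, with a dashed line at 10 kb. At 10 kb the immunoglobulin segments are at 9.17% and all genes at 12.1%, and the pooled T cell receptor segments, most of them of the alpha and delta array, lie to the right of both over most of the range.

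The T cell receptor V segments, the other genes that lymphocytes rearrange, were the closest comparison. Pooled, their 144 segments had a median distance of 453 kb to a boundary, and 5 started within 10 kb (3.47%, 1.49 to 7.87). The alpha and delta array on chromosome 14, 1.72 Mb with 113 segments as in the heavy array, held 1 boundary, with a score of 0.656, where windows of its length held a median of 5. In that array 50.9% of sampled words were unique, against 74.2% in the heavy array, and the part of this in the lower count was not tested. The pooled distance rests on that array, with a median of 523 kb and 0 segments within 10 kb. The beta array of 22 segments held 3 boundaries, with a median distance of 43.6 kb and 3 segments within 10 kb (13.6%, 4.75 to 33.3). The gamma array of 7 segments held 1 boundary, with a median of 19.97 kb and 2 segments within 10 kb (28.6%, 8.22 to 64.1). Segments of these smaller arrays thus had shorter median distances than the immunoglobulin V segments. Of the arrays with 100 or more segments, the heavy and kappa arrays therefore held 7 and 11 boundaries and the alpha and delta array 1.

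The core CTCF motif, a pattern of 12 letters with a choice of 2 bases at 4 of its positions and no other mismatch allowed, searched on both strands, was dense and of 1 orientation in the heavy array. The array held 55 matches, all 55 on the minus strand, which is the strand of its V segments. That is 22.7 per Mb, beside 0.953 per Mb in the kappa array, which held 3, and 4.97 per Mb over the genome. The lambda array held 2. CTCF sites just after D-proximal heavy segments are known, and here 18 heavy segments had the motif on their own strand within 150 bases of their end, at a median offset of 60 bases. These were 9 of the 10 Ighv5 segments, 7 of the 9 Ighv2 segments, Ighv3-3 and Ighv4-1. No kappa or lambda segment had one there.

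Near boundaries, the motif was counted within 10 kb. Of the 7 heavy boundaries 5 had a match (71.4%, 35.9 to 91.8), beside 0 of the 11 kappa boundaries (up to 25.9%) and 26.0% of all boundaries. With 22.7 matches per Mb, a window around any point of the heavy array also often holds a match. The share therefore describes the array as well as its boundaries. With 3 matches in the whole kappa array, most windows there hold none, so the kappa count likewise describes the array. The matches near heavy boundaries were on the minus strand, as were all 55 of the array. A match lay inside the interval itself for those at chr12:114650001-114655000 and chr12:115995001-116000000. Of the boundaries that enclose the arrays, chr12:116205001-116210000 and chr6:67320001-67325000 had 1 match each within 10 kb, and the others had 0. Windows of 30 bases around 4 matches near boundaries inside the heavy array are printed on the minus strand, with the core in capitals. They were picked because each is the only match within 10 kb of its boundary, while the boundary between Ighv1-52 and Ighv1-53 had 2. They lie at chr12:113879015-113879044 just after Ighv2-9, chr12:114650618-114650647 on the D side of Ighv1-15, chr12:115837889-115837918 on the distal side of Ighv1-75 and chr12:115997144-115997173 on the D side of Ighv1-85. Each is listed under the segment whose start is nearest to its boundary.
Ighv2-9: tgctcaggaCCAGCAGGGGGCgctgagaac
Ighv1-15: tactcatgaCCAGCAGGGGGCactatgaga
Ighv1-75: agctcatgaCCAGCAGATGGCacaatgagg
Ighv1-85: agctcatgtCCAGCAGATGGCacaatgagg
The windows beside Ighv2-9 and Ighv1-15 have the same capitals, and so do those beside Ighv1-75 and Ighv1-85. A match is a sequence and not a measured site of binding, and no match says nothing of CTCF.

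**Figure D5:**
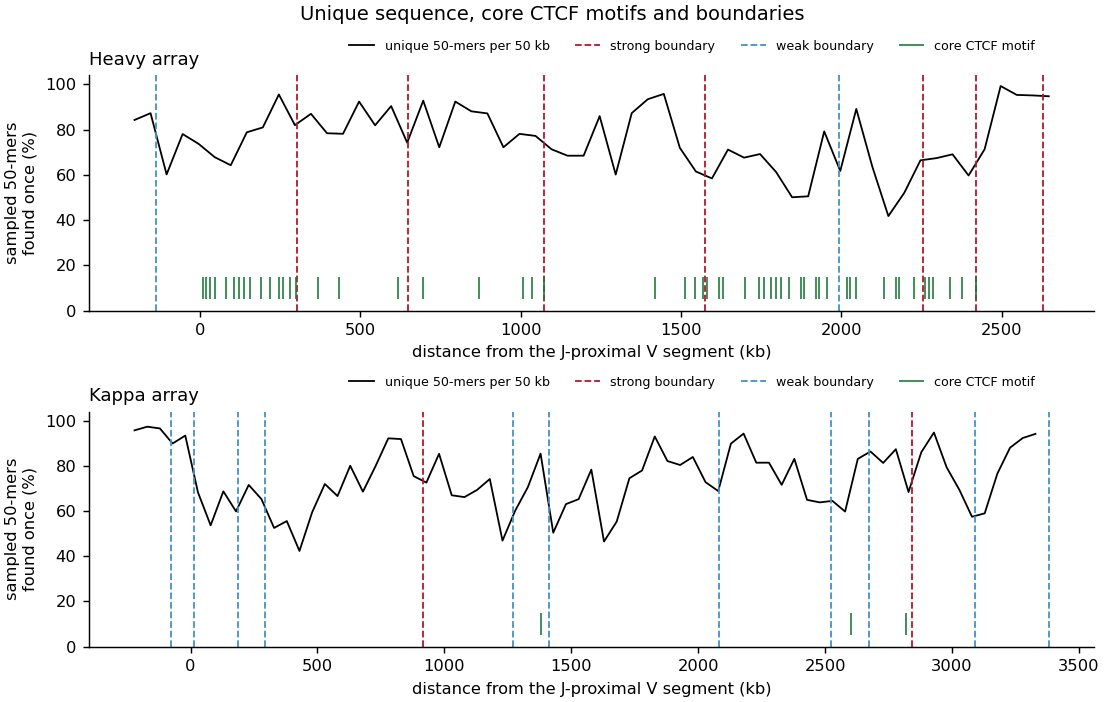
Share of sampled 50-base words found once in the reference per 50 kb (black line, percent) along the heavy and kappa arrays, in kb from the J-proximal V segment, with core CTCF motifs as green ticks and boundaries as dashed lines (red, strong; blue, weak). The heavy array carries 55 motifs and the kappa array 3, and unique sequence dips below 50% in places in both.

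The genes that act on the V segments lay near boundaries at about the share of other protein-coding genes. Of 34 genes of V(D)J recombination and early B cell development, 6 started within 10 kb of a boundary (17.6%, 8.35 to 33.5), beside 16.4% of protein-coding genes. Among the joining factors these were Xrcc5, the Ku80 subunit, at 2.58 kb from a boundary of score 0.398, Xrcc4 at 5.39 kb from one of 0.311, and Lig4, the ligase of end joining, at 2.69 kb from one of 0.635. Hmgb1, a cofactor of the recombinase, started inside a boundary of 0.233. Of the regulators, Ebf1 started 7.32 kb from a boundary of 2.08, and Yy1 inside one of 0.302. Rag1 and Rag2 lay 20.5 and 45.3 kb from the same strong boundary of 0.718. Of 11 marker genes of lymphocytes, 2 started within 10 kb (18.2%, 5.14 to 47.7), beside 12.1% of all genes. They were Trbc1 and Trbc2, both at the same boundary of 1.47 in the T cell receptor beta locus. These positions do not show whether lymphocytes were among the sorted cells.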

How the data were processed

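The submitters' processing notes name GRCm38, and the series' design text says that boundaries were called on the contact matrix made from both replicates. Which program called them, and with which settings, is not given in the sources used here. In the list as deposited, each row gives the class and score of a boundary, and the score is the authors' value, used only to describe and rank boundaries within the list. Contact matrices and insulation and compartment tracks were not analysed here. Depth is unknown.

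V segments came from GENCODE M21 and sequence from the RefSeq copy of the same build. A segment was near a boundary when its start, the 5′ end of the gene model, lay within 10 kb of the interval. A boundary was inside an array when its midpoint lay between the first and last V segment. Unique sequence is the percent of 50-base words, sampled 1 in 32, found once in the reference. Octamers were exact matches. The core CTCF pattern allowed 2 bases at 4 of its 12 positions. Recombination signals needed only the first 3 letters of the heptamer, with the nonamer placed at its best match. No V segment was in the RefSeq promoter table, so windows of 250 bases before and 50 after each start were read from the genome.

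The single group and the pooled calls allow no test between samples, so counts and scores are described beside those of the whole list. The members and lists were chosen with earlier results of these data known. Named segments are the ends of each array, those that flank each boundary, those inside one and those nearest to the enclosing boundaries; pathway genes are named where near. Ighv5 and Ighv2 counts, Ighv3-3, Ighv4-1, the D segments, Adam6a, Adam6b, Olfr164 to Olfr169, and the distances of Rag1 and Rag2 were added after their values were seen. The counting steps were tested on simulated data. Python 3.11.15, numpy 2.4.6, pandas 2.3.3 and matplotlib 3.10.9 were used.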

Additional observations from a re-analysis of the deposited data

How the results depend on the processing

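Of 72 values recomputed for 13 results, 51 stayed and 21 moved. A count stayed when within 1.5 times the main count, and a score when it was the same. The share of segments near a boundary stayed when within the interval of the main share, 6.02 to 13.7%. The number of boundaries in the heavy array stayed within 1.5 times 7 under every alternative run, and the lambda array kept 0. With strong boundaries alone, or with those at or above the median score, the kappa array held 2 boundaries and at most 56 segments in 1 domain, and its enclosing scores became 0.696 on the distal side and 1.08 on the J side. The same limits, leaving out intervals of mostly repeated sequence, or taking the whole locus, gave 1.73 on the D side of the heavy array in place of 0.274. Leaving out repeated intervals put at most 38 heavy segments in 1 domain, and adding pseudogenes put 44 heavy and 42 kappa segments there. At or above the median score, the distal lambda score became 0.614. The share of segments near a boundary was 4.13% with strong boundaries alone or with those at or above the median (7.54% of all genes for strong ones). It was 1.38% inside the interval, 17.4% within 25 kb and 30.3% within 50 kb, beside 3.26%, 22.6% and 39.7% of all genes. Fewer boundaries or more genes enter by construction, and no other cause was tested. No paired analysis was possible because both replicates were pooled before calling, and for the same reason no replicate could be left out.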
